A study of Mus musculus with 12 samples.

Results

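The clustered histone genes are the gene copies, named Hist1h to Hist4h after their cluster, that encode the linker histone H1 and the core histones H2A, H2B, H3 and H4. Every symbol of that form with at least 1 count in the 12 libraries was taken, which gave 60 members of 68 such symbols, out of 22609 genes in the count tables. They comprised 5 H1, 14 H2A, 17 H2B, 12 H3 and 12 H4 genes, of which 47 belonged to the Hist1 cluster, 9 to Hist2, 3 to Hist3 and 1 to Hist4.

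The libraries came from mouse adherent neural stem (ANS) cells, a line derived from the embryonic brain at E14.5 and grown as a monolayer, which was driven towards GABAergic neurons by changes of medium. T0 cells (3 libraries) were kept in growth medium with N2 supplement, FGF2 and EGF. T1 cells (3 libraries) had spent 2 days in medium D1, with B27 added and less N2, FGF and EGF. T2 cells (4 libraries) had gone through medium D1 and then 2 days in medium B, which holds N2, B27, FGF-2 and BDNF on laminin, and T3 cells (2 libraries) were labelled as 10 days in medium B. No transgene or deletion was used, and all groups shared the same cells. The replicates were described as independent, without a statement of separate cultures, so the p-values measure the spread between these libraries.

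Replication-dependent histone mRNAs are made in S phase to package newly copied DNA, and they are unusual in ending in a conserved stem-loop in place of a poly(A) tail. The stem-loop is bound by SLBP, and the transcript is cut just past it with the help of the U7 snRNP. Some clustered histone genes also yield polyadenylated transcripts, read through to a signal farther downstream, and such transcripts are known from cells that have left the cycle. The RNA measured here was selected by its poly(A) tail, so transcripts ending at the stem-loop are expected to be largely missed. The comparison of T0 with the later times asks whether the class levels moved with the replication genes or against them.

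The stem-loop is what the members share. Its pattern of 16 bases was searched as GG, 3 bases of any kind, TT, 1 of any kind, T, 1 of any kind, A, 3 of any kind and CC. Only the sense strand was read, within 150 bases after each annotated stop codon, and the pattern was found in 55 of 58 members with an annotated stop codon (94.8%), against 78 of 21739 other protein-coding genes (0.359%). Hist1h2an, Hist2h2bb and Hist2h2be had no match in this window. The match began 22 to 59 bases after the stop codon. The same 16 bases occurred in 33 members. The sequences below, from the mm9 genome, are shown because they belong to members that rose, fell or held most counts. Capitals mark the 16 stem-loop bases and lower case 5 bases on either side.
Hist3h2a, chr11:58768669-58768694, plus strand: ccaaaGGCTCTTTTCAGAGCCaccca
Hist2h3c1, chr3:96051245-96051270, plus strand: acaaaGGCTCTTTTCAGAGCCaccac
Hist1h1c, chr13:23831376-23831401, plus strand: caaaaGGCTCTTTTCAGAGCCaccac
Hist1h2bc, chr13:23776511-23776536, plus strand: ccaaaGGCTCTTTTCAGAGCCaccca
Hist1h2be, chr13:23677395-23677420, minus strand: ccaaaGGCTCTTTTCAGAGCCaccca
Hist1h4i, chr13:22132830-22132855, minus strand: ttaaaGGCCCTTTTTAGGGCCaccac
Hist1h2ag, chr13:22134347-22134372, minus strand: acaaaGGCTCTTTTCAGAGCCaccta
Hist1h3g, chr13:23627753-23627778, plus strand: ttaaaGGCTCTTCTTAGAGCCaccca
Hist3h2a, which rose, and Hist1h2be, which fell at T1, carried the same 26 bases, so the letters of the stem-loop did not separate the directions described below.

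The libraries held 8910724 to 16631614 counts on genes, and the members took 579 to 1804 of them, or 38.1 to 112 CPM (counts scaled to a library of 1000000). One count was worth 0.0601 to 0.112 CPM. T0 replicate 3 stood apart from the other T0 libraries. The chi-square per gene, near 1 for sampling noise alone, was 96.4 and 99.9 between it and T0 replicates 1 and 2, and 3.17 between those 2. The summed level of 45 replication genes was 8664 CPM in T0 replicate 3, against 5113 and 5209 CPM in T0 replicates 1 and 2. It differed in cell type markers too, named here after their values were seen. The astrocyte marker Gfap stood at 0.494 CPM in it against 146 and 148 in T0 replicates 1 and 2. Aqp4 stood at 7.69 against 87.6 and 90.6, and Slc1a2 at 32.1 against 315 and 328. Progenitor markers went both ways: Fabp7 stood at 2259 against 748 and 804, and Nes at 1815 against 846 and 960. Sox2 stood at 186 against 428 and 427, Hes5 at 27.1 against 59.9 and 58.4, and Pax6 at 40.4 against 55.3 and 56.2. Vim, at 3109 CPM, lay between its values in T0 replicates 1 and 2. The part of these differences in the histone levels was not tested. For the called members and a few other results, values or calls without this library are also given. Most other comparisons with T0 are given with it only. Fewer cells expressing a gene and less RNA per cell cannot be told apart in such bulk libraries.

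A few genes carried nearly all member counts. Hist3h2a, an H2A gene on chromosome 11, held 6417 of the 13138 member counts (48.8%). Hist1h1c, which encodes the linker histone H1.2, held 2162, and the H2B genes Hist2h2be and Hist1h2bc held 1359 and 989. Hist2h3c1 (H3) had 475 counts, Hist1h4i (H4) 297 and Hist1h2be (H2B) 177. These 7 genes together made up 90.4% of the counts. The other 53 members had 1 to 153 counts each over all 12 libraries, with a median of 15, and 25 members had at most 12.

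Counts followed the annotated 3′ end. A member was called extended when a GENCODE transcript ran at least 100 bases past the stem-loop, or, where none was found, at least 100 bases past the end of the 150 bases searched. The 19 extended members held 94.7% of the counts, with a median of 72, and the 39 with a short 3′ end held 4.57%, with a median of 10. All 7 genes named above were extended. A polyadenylation signal, AATAAA, was searched in the last 50 annotated bases after the stop codon. Of the extended members 9 had it, among them Hist1h1c, Hist1h2bc, Hist2h2be and Hist2h3c1, but not Hist3h2a, Hist1h4i or Hist1h2be. Of the short ones 0 had it. Some of these, such as Hist1h1b and Hist4h4, have 0 annotated bases after the stop codon, so none could be found there. Extended transcripts were longer (median 1249 against 479 exonic bases) and more often readable without a copy elsewhere: the median share of 50-base windows unique in the genome was 75.2% against 46.0%. What each of these contributed to the counts was not tested.

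**Figure D1:**
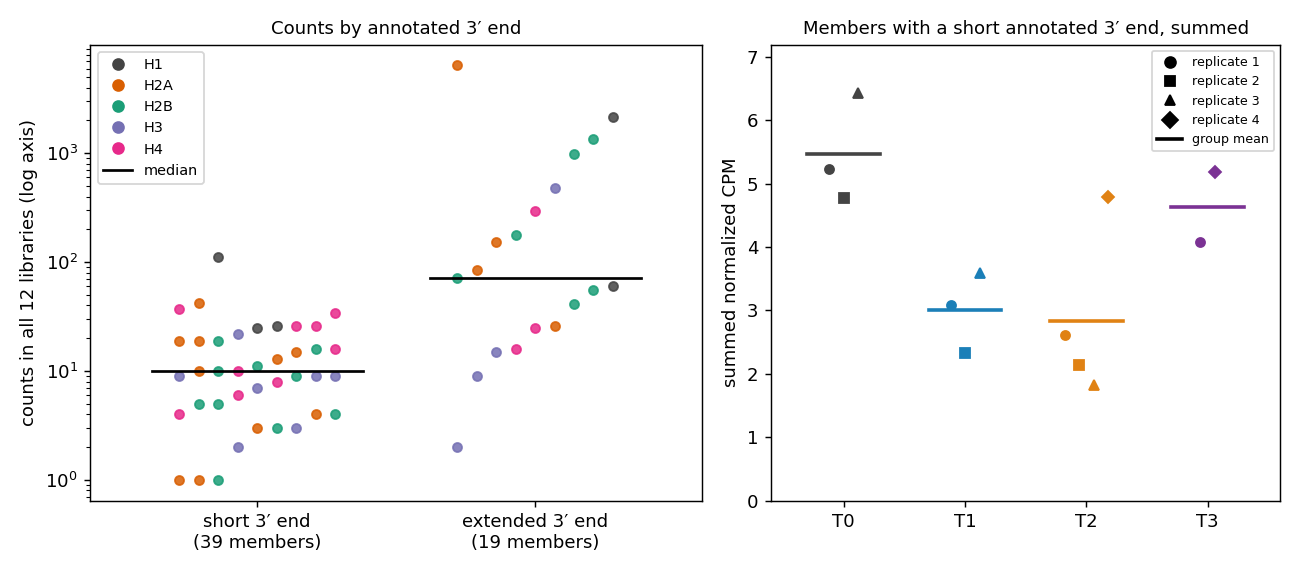
Left, counts over all 12 libraries (log axis) of members with a short or an extended annotated 3′ end, coloured by class, with a line at the median of 10 and of 72 counts. Right, summed normalized CPM of the 39 short members in each library, with lines at the group means, which were 5.47 for T0, 3.00 for T1, 2.84 for T2 and 4.63 for T3.

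In the H2A class 1 gene, Hist3h2a, rose as the cells left growth medium. It lies at chr11:58768187-58770176 (plus strand, a single exon) and stood at 25.7, 28.8 and 9.95 normalized CPM in T0 replicates 1, 2 and 3. It stood at 51.7, 48.7 and 48.7 in the T1 libraries, at 54.2, 43.9, 63.5 and 53.5 in the T2 libraries, and at 47.2 and 32.0 in T3 replicates 1 and 4. Every library after T0 was above every T0 library. On the log2 scale the T1 change was 1.20 (SE 0.36, adjusted p by edgeR = 0.042) and the T2 change 1.33 (SE 0.33, adjusted p by edgeR = 0.0124), and at T3 it was 0.90 (SE 0.47, adjusted p by edgeR = 0.28). Without T0 replicate 3, the library with the lowest value, the log2 fold changes were 0.85, 0.98 and 0.56, with adjusted p by edgeR of 0.00014, 0.000337 and 0.139. The T1 call was lost without T0 replicate 1 (adjusted p by edgeR = 0.0592) and without any 1 of the T1 libraries (0.11 to 0.122), at log2 fold changes of 1.17 to 1.34, and over all alternatives its adjusted p ran from 0.00014 to 0.122. At T2 the adjusted p over all alternatives ran from 0.00029 to 0.0702. Of its 50-base windows 97.8% were unique. The gene overlaps Trim17, which had 5 to 32 counts per library.

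In the H3 class Hist2h3c1 rose too, from a lower level. It lies at chr3:96049477-96052431 (plus strand) and had 14, 10 and 1 counts in the T0 libraries, or 1.05, 0.692 and 0.0706 normalized CPM. The T1 libraries held 3.26, 4.44 and 3.65 CPM, the T2 libraries 4.54, 3.99, 5.39 and 4.54, and the T3 libraries 4.24 and 2.05. The groups did not overlap with T0 at any of the later times. On the log2 scale the T1 change was 2.63 (SE 0.61, adjusted p by edgeR = 0.018) and the T2 change 2.93 (SE 0.53, adjusted p by edgeR = 0.00297), and without T0 replicate 3 it was 2.11 and 2.41, both past the threshold. At T3 it was 2.39 (SE 0.84, adjusted p by edgeR = 0.144), or 1.88 without T0 replicate 3 (0.0584). The T1 call was lost without any 1 of the T1 libraries (adjusted p by edgeR of 0.0607 to 0.0781), and its adjusted p over all alternatives ran from 0.000233 to 0.0781. The T2 call held in all 12 alternatives. Of the windows of Hist2h3c1 42.7% were unique, and the gene overlaps Hist2h2aa1, so reads from its copies could be lost or shared. Hist2h3c2-ps, named as a pseudogene, had 0, 1 and 0 counts at T0, 1, 7 and 9 at T1, 8, 8, 7 and 13 at T2, and 8 and 3 at T3. It did not pass the filter on low counts, and DESeq2 called it at T2 (adjusted p = 0.00109).

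The remaining H3 members held few counts. Summed, the 10 H3 genes other than Hist2h3c1 and Hist2h3c2-ps, a split made after their values were seen and not tested as a sum, held 0.761 to 1.13 CPM at T0, against 0.226 to 0.515 at T1 and 0.183 to 0.371 at T2. The T3 libraries held 0.499 and 0.971 CPM of them. In counts these were 11 to 16 per T0 library and 2 to 8 per T1 or T2 library. Hist1h3g had a mean of 0.385 CPM at T0 and 0.0657 at T1. Hist1h3c, Hist1h3h and Hist1h3i had 0 or 1 counts in each T0 library and 0 to 3 in each T1 library, too few to give a direction. The H3 sum, 1.58 ± 0.412 CPM (SD, n = 3) in the T0 libraries and 5.66 ± 0.454 (SD, n = 4) in the T2 libraries, went in the direction of Hist2h3c1, with 75.8% of the class counts.

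In the H4 class Hist1h4i fell. It lies at chr13:22132685-22133221 (minus strand), has the stem-loop inside its annotated transcript, and stood at 2.69, 2.84 and 2.82 CPM at T0, the tightest of the named genes at that time. It stood at 1.37, 0.904 and 1.70 at T1, at 1.26, 1.02, 1.64 and 1.90 at T2, and at 2.16 and 2.70 at T3. All T1 and T2 libraries were below all T0 libraries, and T3 overlapped T0. On the log2 scale the T1 change was -1.06 (SE 0.30, adjusted p by edgeR = 0.0358), the T2 change -0.91 (SE 0.27, adjusted p by edgeR = 0.0264) and -0.19 at T3 (SE 0.34, adjusted p by edgeR = 0.757). T0 replicate 3 did not decide these values, since without it they were -1.05, -0.89 and -0.18. The T1 call was lost without T0 replicate 1 or 2 or any 1 T1 library (adjusted p by edgeR of 0.0515 to 0.119). It was also lost without the filter on low counts (0.0501) and with a block for replicate number. The T2 call was lost without T0 replicate 1 or 2 or T2 replicate 1 or 2 (0.057 to 0.0706), and with that block (0.0719). Over all alternatives the adjusted p ran from 0.0148 to 0.119 at T1 and from 0.0175 to 0.0719 at T2. Between T2 and T3 its log2 fold change was 0.71 (SE 0.35, adjusted p by edgeR = 0.353), with every T3 library above every T2 library. The H4 sum went from 4.07 ± 0.513 CPM (SD, n = 3) in T0 cells to 2.60 ± 0.822 (SD, n = 3) in T1 cells and 2.49 ± 0.663 (SD, n = 4) in T2 cells, and stood at 4.24 and 5.07 in the T3 libraries. The 11 other H4 genes summed to 1.28 ± 0.489 CPM at T0 and 1.27 ± 0.48 at T1 (SD, n = 3 each), so the lower sum at T1 was that of Hist1h4i.

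Of the H2B genes tested, Hist1h2be fell at T1 and the others passed no threshold. Hist1h2be (chr13:23675611-23712993, minus strand) had 28, 28 and 17 counts at T0 and 3, 6 and 5 at T1, or 2.09, 1.94 and 1.20 CPM against 0.257, 0.452 and 0.304. Its log2 fold change at T1 was -2.34 (SE 0.40, adjusted p by edgeR = 0.00647), and the call held in all 11 alternatives. At T2 it stood at 1.06, 0.928, 1.19 and 1.59 CPM, and at T3 at 1.66 and 1.08. Every T2 library was above every T1 library, with a log2 fold change of 1.82 (SE 0.38, adjusted p by edgeR = 0.0707) that did not pass the threshold. Its annotated transcripts overlap Gm11398, and whether the counting used strand was not given in the sources used here.

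Hist1h2bc (chr13:23776068-23784357, plus strand) is annotated with a second exon, and its transcript is spliced around the stem-loop. In the single transcript checked for each gene, this was true of no other member. It stood at 5.90, 6.36 and 4.02 CPM at T0, at 5.75, 4.29 and 6.14 at T1, at 7.63, 5.57, 7.86 and 7.79 at T2, and at 8.65 and 8.63 at T3. Both T3 libraries were above all others, and T1 overlapped T0. No comparison passed the threshold: the log2 fold change was -0.02 at T1 (adjusted p by edgeR = 0.964), 0.41 at T2 (0.175) and 0.68 at T3 (SE 0.31, adjusted p by edgeR = 0.232). Of its windows 49.2% were unique.

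Hist2h2be (chr3:96025044-96027661, plus strand), whose 3′ end had no stem-loop match, stood at 9.86, 9.68 and 3.25 CPM at T0 and between 7.01 and 11.0 in the other 9 libraries. Only T0 replicate 3 was outside that range. Its log2 fold changes were 0.34, 0.36 and 0.01 at T1, T2 and T3, with adjusted p by edgeR of 0.529, 0.435 and 0.994, and without T0 replicate 3 they were -0.02, 0.00 and -0.35. The H2B sum was 16.7 ± 5.38 CPM in T0 cells and 16.7 ± 0.782 in T1 cells (SD, n = 3 each), against 20.1 ± 2.29 in T2 cells (SD, n = 4), and 21.1 and 18.9 in the T3 libraries.

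H1 was carried by Hist1h1c (chr13:23830676-23832235, plus strand, a single exon), with 90.6% of the class counts. It stood at 18.7, 17.5 and 10.2 CPM at T0, at 13.0, 7.91 and 17.6 at T1, at 12.4, 9.10, 13.4 and 19.0 at T2, and at 9.98 and 17.9 at T3. The groups overlapped throughout, with log2 fold changes of -0.27, -0.19 and -0.14 (adjusted p by edgeR of 0.566, 0.618 and 0.843). The 4 other H1 genes summed to 2.99, 2.70 and 1.48 CPM at T0, against 0.753 to 1.46 at T1 and 0.65 to 1.23 at T2, and to 1.91 and 0.971 in the T3 libraries. Without T0 replicate 3 edgeR called Hist1h1d lower at T1 (log2 fold change -1.95, adjusted p = 0.0122) and at T2 (adjusted p = 0.0043), and Hist1h1e, of the same class, lower at T2 (adjusted p = 0.0397). Without that library 24.9% of all genes were called lower at T1 and 25.3% at T2. With all T0 libraries neither Hist1h1d nor Hist1h1e was called, and Hist1h1d passed the filter on low counts at T3 only.

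**Figure D2:**
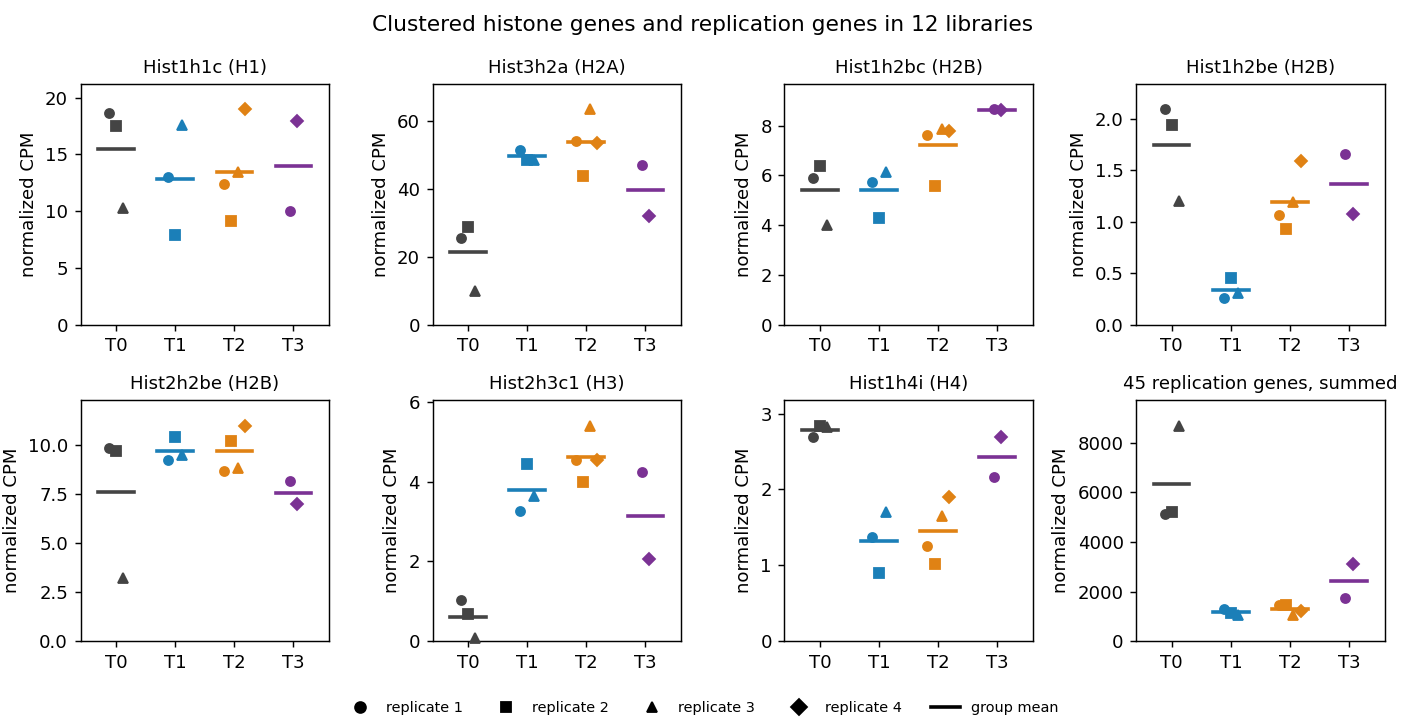
Normalized CPM of the 7 named members in each library (symbols, replicates) with group means (lines), and the summed normalized CPM of 45 replication genes. Hist3h2a and Hist2h3c1 sit above T0 at T1 and T2, where the replication genes sit below it, and Hist1h4i and, at T1, Hist1h2be sit below T0.

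By class, the summed levels, which were not tested, followed the leading genes. H2A summed to 24.3 ± 10.1 CPM in T0 cells and 51.8 ± 2.07 in T1 cells (SD, n = 3 each), to 56.3 ± 8.37 in T2 cells (SD, n = 4), and to 49.1 and 34.9 at T3. Hist3h2a held 94.3% of the H2A counts. The 13 other H2A genes summed to 2.84 ± 0.146 CPM in T0 cells, 2.14 ± 0.612 in T1 cells (SD, n = 3 each) and 2.53 ± 1.42 in T2 cells (SD, n = 4). Every T1 library was below every T0 library in this sum, and T2 and T3 overlapped T0. The sum over all 60 members was 75.6, 77.1 and 40.9 CPM at T0, against 81.9 to 95.9 at T1 and 80.7 to 111 at T2, and stood at 91.7 and 81.1 in the T3 libraries. Every later library was above every T0 library, by 1.39 times at T1 on the means, or 1.17 times without T0 replicate 3.

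**Figure D3:**
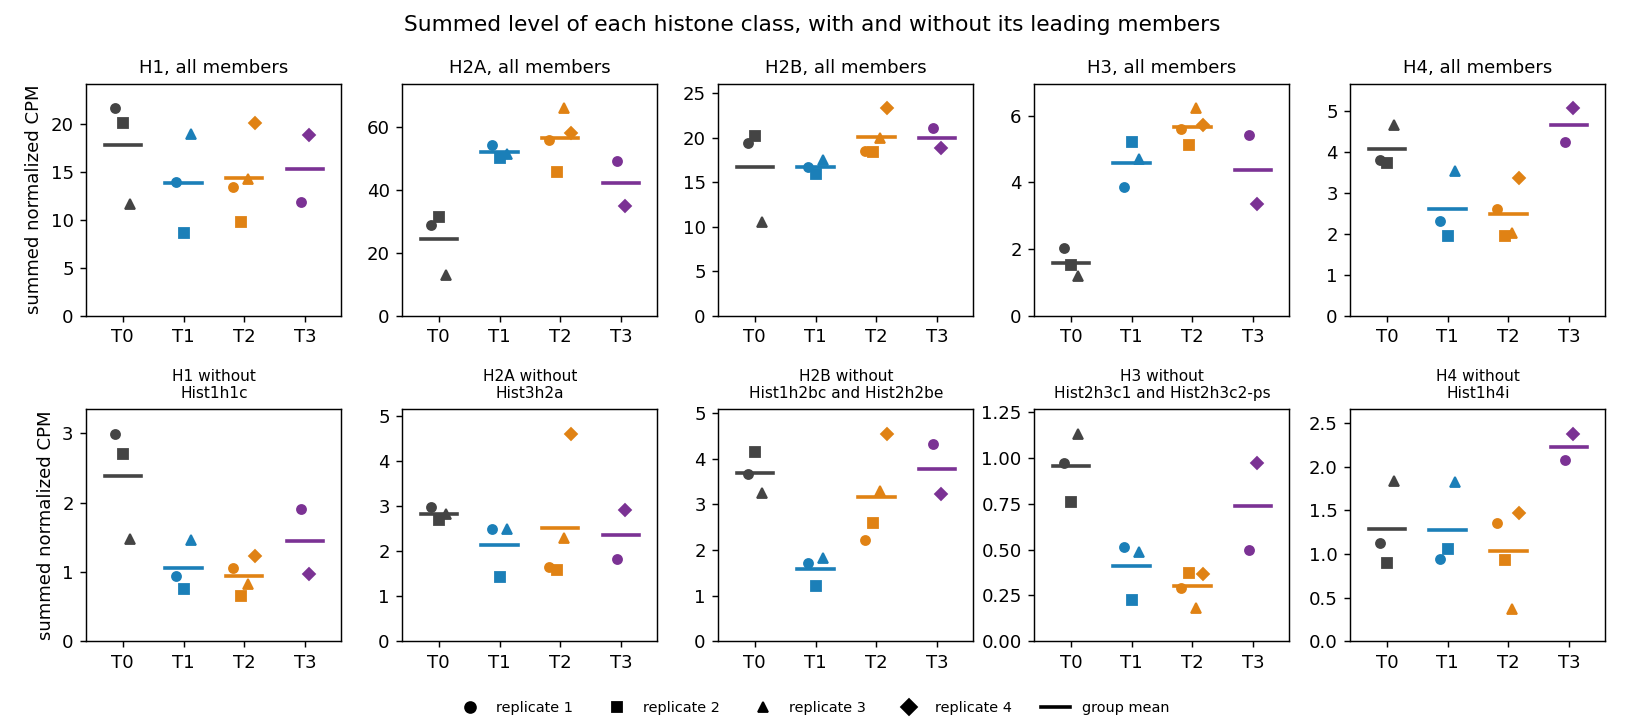
Summed normalized CPM of each histone class per library (top) and the same without the leading member or members (bottom), with group means as lines and axes that differ between panels. H2A and H3 sit above T0 at T1 and T2 only with Hist3h2a, Hist2h3c1 and Hist2h3c2-ps in the sum, and without them H3 sits below T0 at both times.

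Replication genes fell as a list. All 45, which include the Mcm helicase, the origin and polymerase subunits and the enzymes of nucleotide supply, were lower at T1 and at T2, with median log2 fold changes of -2.35 and -2.20. At T1, 9 members passed the filter on low counts, of which 2 were lower (Hist1h2be and Hist1h4i) and 2 higher (Hist2h3c1 and Hist3h2a), where 16.8% of all 12364 genes tested were called lower and 15.1% higher. The median log2 fold change of these 9 was -0.02, against -0.01 over all genes tested. At T2, 8 members were tested, of which Hist1h4i was lower and Hist2h3c1 and Hist3h2a higher, where 21.8% of 12607 genes were called lower and 21.4% higher. Their median was 0.30, against 0.00. These members are the ones with enough counts, and their shares called lie near those of all genes tested.

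At T3, edgeR called 0 of 11 tested members lower or higher than at T0, where 1.41% and 3.31% of 12721 genes were called. At an unadjusted p under 0.05 the count was 1, Hist2h3c1, DESeq2 and the fit without a filter called 0, and a single fit of all 12 libraries called 1, Hist2h3c1 (adjusted p by edgeR = 0.00828, over all alternatives 0.00828 to 0.61). Replication genes were partly lower at this time, with 4 of 45 called and a median log2 fold change of -1.38, and 14 were called without T0 replicate 3.

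Between T1 and T2 edgeR called 0 of 8 tested members (background 0.0565% lower and 0.573% higher), and 2 had an unadjusted p under 0.05, Hist1h2bc and Hist1h2be, both with the higher level at T2. Between T2 and T3 edgeR called 0 of 8 (background 0.691% lower and 0.5% higher), and 0 had an unadjusted p under 0.05. DESeq2 called 0 in both comparisons. Of the replication genes 4 were higher at T3 than at T2 (Cdt1, Cdc45, Rrm2 and Ccne1), and the median over the 45 was 0.90. Over the same interval the log2 fold changes of Hist3h2a and Hist2h3c1 were -0.43 (SE 0.19, adjusted p by edgeR = 0.297) and -0.52 (SE 0.32, adjusted p by edgeR = 0.468).

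**Figure D4:**
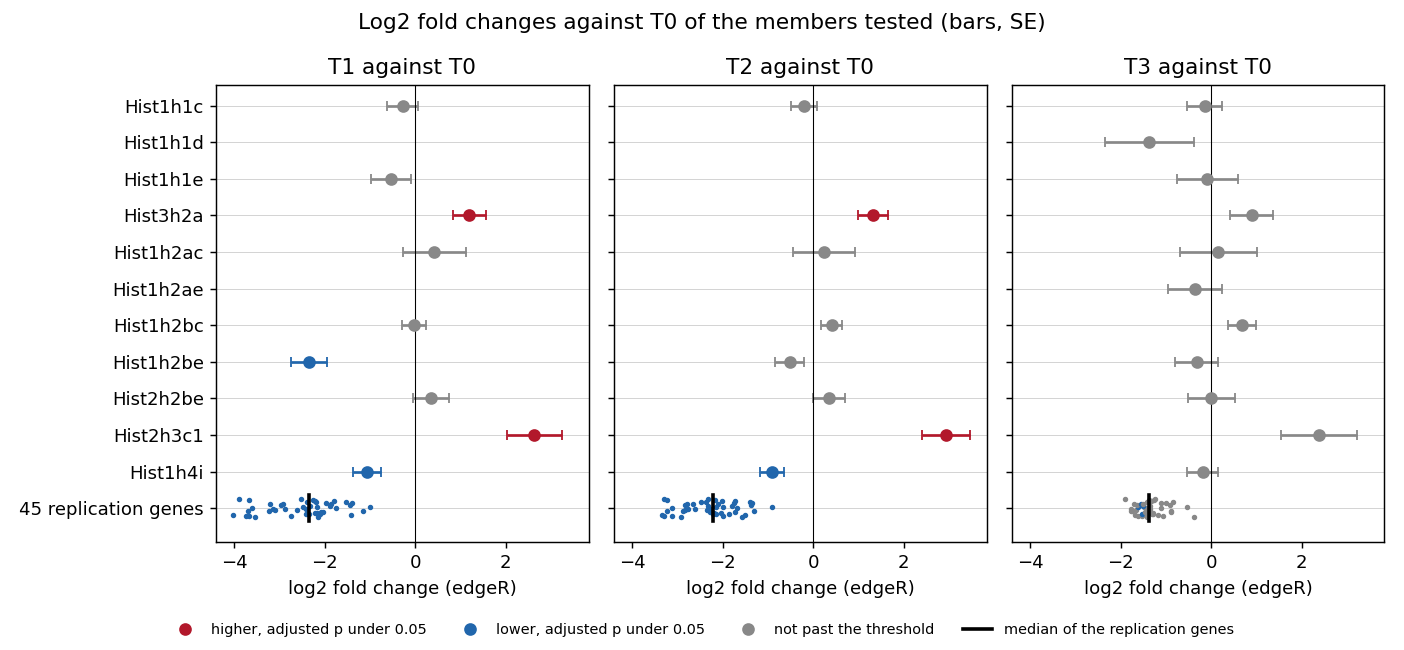
Log2 fold changes against T0 from edgeR, with SE, of the members tested at each time, and, in the bottom row, of the 45 replication genes with their median (black line). Hist3h2a and Hist2h3c1 are past the threshold on the higher side at T1 and T2, while all 45 replication genes are on the lower side, and no member is past it at T3.

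Within T0 and T3 the libraries with the highest replication gene sum had the least Hist3h2a and Hist2h3c1. The replication genes summed to 5113, 5209 and 8664 CPM at T0, 1068 to 1294 at T1, 1070 to 1456 at T2, and 1759 and 3126 in T3 replicates 1 and 4. T0 replicate 3, the highest of these and the library that stood apart in astrocyte markers, had the lowest Hist3h2a and Hist2h3c1 of all libraries. T3 replicate 4, with the higher sum of the T3 libraries, had 32.0 CPM of Hist3h2a against 47.2 in T3 replicate 1, and 2.05 CPM of Hist2h3c1 against 4.24. Within T1, where the sums differ little, the library with the highest sum, replicate 1, had the most Hist3h2a. The T0 libraries lie apart from most others, so no correlation over the 12 libraries is given.

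**Figure D5:**
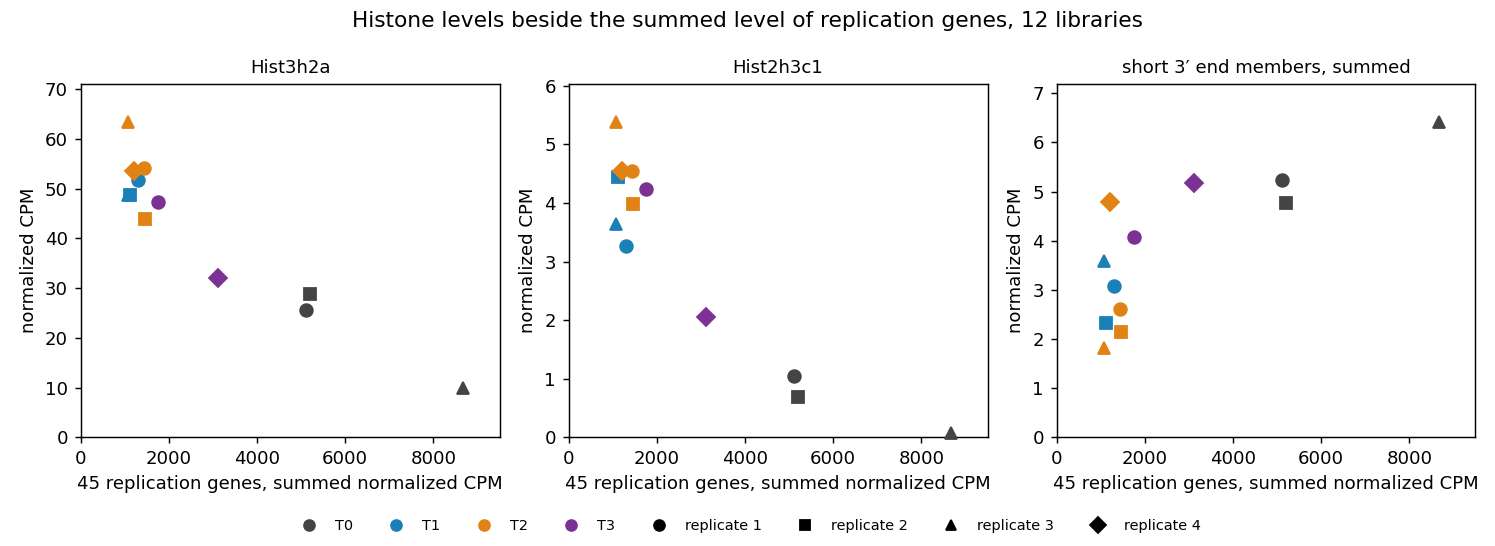
Normalized CPM of Hist3h2a, of Hist2h3c1 and of the 39 members with a short 3′ end, summed, against the summed normalized CPM of 45 replication genes, in 12 libraries (colours, groups; symbols, replicates). T0 replicate 3, at the right end, has 9.95 CPM of Hist3h2a and 6.42 CPM of the short members, and T2 replicate 3, near the left end, has 63.5 and 1.83 CPM.

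The 53 members outside the named 7 summed to 9.32 to 9.64 CPM at T0, 4.75 to 8.33 at T1, 5.94 to 11.4 at T2, and 9.65 and 9.71 in the T3 libraries, so T2 and T3 reached past the T0 range. Those with a short 3′ end summed to 5.23, 4.77 and 6.42 CPM in the T0 libraries, on 70, 69 and 91 counts. They summed to 3.09, 2.34 and 3.59 at T1, to 2.61, 2.14, 1.83 and 4.78 at T2, and to 4.07 and 5.18 at T3. All T1 libraries were below all T0 libraries, and T2 replicate 4 and T3 replicate 4 were above T0 replicate 2. Extended members summed to 34.4 to 72.1 CPM at T0, 78.8 to 91.4 at T1, and 77.5 to 105 at T2. Over all members with a count, every T1 library was below every T0 library in 10 of 58 and above in 5, where 21.9% and 24.1% of all genes were. At T2 these numbers were 9 and 5 of 59 (background 20.1% and 21.8%), and at T3, with 2 libraries, 5 and 12 of 60 (19.6% and 23.4%). Between T1 and T2, 0 members stood apart below and 3 above, of 53 (4.14% and 6% of all genes), and between T2 and T3, 3 and 8 of 55 (9.71% and 11.4%).

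Single sparse genes, named here after their values were seen, passed only outside the filter on low counts. Hist1h2ag, an H2A gene, had 7, 7 and 14 counts at T0, 2, 1 and 1 at T1, 0, 0, 0 and 2 at T2, and 2 and 6 at T3. Without the filter edgeR called it lower at T1 (adjusted p = 0.0221) and at T2 (adjusted p = 0.00598), and DESeq2 did so too (0.0279 and 0.00656). Hist1h3g (H3) had 7, 3 and 6 counts at T0, 0, 1 and 2 at T1, 0 in all T2 libraries and 1 and 2 at T3, and both called it lower at T2 (adjusted p by edgeR = 0.0101, DESeq2 adjusted p = 0.00978). Hist1h1b (H1) had 9, 4 and 6 counts at T0, at most 2 in every later library, and was called lower at T2 by both (adjusted p by edgeR = 0.0174, DESeq2 adjusted p = 0.0324). In these fits 16.1% of all genes without the filter and 21.5% with DESeq2 were called lower at T2, and at such counts no fold change is given.

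Some members cannot be told from their copies. Of 59 members found in the annotation, 24 had fewer than 50% unique windows, and together they held 1689 counts. Of the 8 symbols with 0 counts, 5 had less than 1% unique windows: Hist1h2ao, Hist1h2ap, Hist1h2bq, Hist1h2br and Hist2h2aa2. Their 0 counts therefore give no level. Hist1h1t, the testis H1, and Hist1h2aa had 0 counts with 100% and 97.7% unique windows.

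Levels between genes were compared per length, on the FPKM scale of the deposited table. Hist3h2a stood at 8.19 ± 3.51 FPKM in T0 cells and 18.7 ± 0.99 in T1 cells (SD, n = 3 each), at 19.0 ± 3.00 in T2 cells (SD, n = 4), and at 16.7 and 10.0 at T3. Hist1h2bc and Hist1h1c, at 6.98 ± 1.28 and 7.96 ± 1.94 FPKM at T0 (SD, n = 3 each), overlapped it there and were below it at T1 and T2, with no overlap between libraries. Hist1h4i stood at 5.40 ± 0.46 FPKM at T0 and 2.45 ± 0.837 at T1 (SD, n = 3 each), and Hist2h3c1 at 0.15 ± 0.121 and 0.948 ± 0.133. On the same scale H3f3b, a replication-independent gene for histone H3.3, stood at 339 FPKM at T0 and 437 at T1 on the means, and H2afv, for an H2A.Z variant, at 375 and 256. All clustered genes were far below H3f3b and H2afv, the highest of the 11 listed histone genes outside the clusters. At T0 the means of all 11 were above that of Hist3h2a. At T1 those of H2afx, H2afz and Cenpa, 17.5, 11.6 and 7.53 FPKM, were below it and the others above.

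Most of the listed histone genes outside the clusters were lower. Of these 11 genes, 6 were lower and 1 higher at T1, again 6 and 1 at T2, and 0 were called at T3. Their median log2 fold change was -0.49 at T1 and -0.65 at T2. Cenpa, the centromeric H3, had a log2 fold change of -3.78 at T1 (SE 0.40, adjusted p by edgeR = 0.00106), and H2afz, an H2A.Z gene, -1.74 (SE 0.30, adjusted p by edgeR = 0.00625). H1f0, the linker histone known from resting cells, was also lower, at -1.11 at T1 and -1.27 at T2 (adjusted p by edgeR = 0.00126 and 0.000162), and stood at 306 ± 35.8 CPM at T0 and 143 ± 5.31 at T1 (SD, n = 3 each). H3f3a, which encodes H3.3, was higher, at 0.60 and 0.57 (adjusted p by edgeR = 0.0107 and 0.00612). H2afx, the variant phosphorylated at DNA breaks, had -1.74 at T2 (SE 0.22, adjusted p by edgeR = 0.000525). H1fx and H2afv were the other lower genes.

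The machinery that makes and carries histones was measured too. Of 21 genes for histone mRNA transcription, 3′ processing and decay, 7 were lower and 0 higher at T1, 10 lower and 1 higher at T2, and 1 lower at T3. Slbp, the stem-loop binding protein, stood at 57.9, 57.0 and 78.7 CPM at T0 and 24.6 to 30.6 in the T1 and T2 libraries, with log2 fold changes of -1.15 at T1 (SE 0.16, adjusted p by edgeR = 0.00264) and -1.24 at T2 (SE 0.15, adjusted p by edgeR = 0.000387). Eri1, a nuclease that trims the stem-loop end, was lower at all 3 times, by -1.19, -1.31 and -1.16, with adjusted p by edgeR of 0.0394 at T3. Npat, the S-phase activator of histone genes, had log2 fold changes of 0.00 and -0.02 (adjusted p by edgeR = 0.989 and 0.866). Among 24 tested of 25 histone chaperone genes, 12 were lower and 1 higher at T1, 14 lower and 2 higher at T2, and 0 were called at T3. The replication-coupled chaperones Chaf1a and Asf1b had log2 fold changes of -3.19 and -3.02 at T1 (adjusted p by edgeR = 0.000691 and 0.00142), and Hira, which deposits H3.3, stood at -0.26 (adjusted p by edgeR = 0.192).

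Markers of the cell types a culture of this kind could hold moved in part with the same comparisons. The summed level of 9 neuronal and GABAergic markers was 898 to 965 CPM at T0, 2057 to 2631 at T1 and 1700 to 2705 at T2 and T3. Mtap2 made up most of this sum, with 880 to 917 CPM at T0 and 1649 to 2186 at T1. Against T0 4 markers were called higher in T1 cells, 5 in T2 cells and 3 in T3 cells. Gad2, Slc32a1 and Dlx2 stayed at or below 0.277 CPM in all libraries, and Dlx1 did not rise (3.04 to 3.59 CPM at T0, 1.83 and 2.05 at T3). Of 8 oligodendrocyte lineage markers, which summed to 3156 to 3624 CPM at T0 and 3958 to 5973 later, 1 was called higher at T1 and 3 at T2. Olig1 and Olig2 made up most of this sum. Sox10 went the other way, from 3.36, 2.63 and 0.706 CPM at T0 to 0.108 to 0.676 later. Of 7 astrocyte markers 2 were lower at T2, and their sum was 947 to 2389 CPM at T0 and 1442 to 2075 later. Progenitor markers summed to 4977 to 7437 CPM over all libraries, and of 6 of them 1 was lower at T1 and 2 at T2. The 5 microglia markers were at or near 0, with a sum of 0.0692 to 0.386 CPM, and the 4 endothelial ones summed to 0.899 to 3.04 CPM. Their part in the histone levels was not tested.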

How the data were processed

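The authors sequenced poly(A)-selected RNA (TruSeq RNA v2), aligned reads to mm9 with TopHat2 2.0.6 and Bowtie 0.12.7.0, and counted them per gene with HTSeq 0.6.0, per the labels and the submitters' processing notes; the deposited counts are whole and not normalized. The authors also deposited FPKM values for every gene in each library, used here only to compare genes. Beside the gene counts, 13.3 to 24.1% of reads fell on no feature, 0.68 to 0.903% were ambiguous and 26.0 to 39.0% aligned to several places, and these lines were left out. The share aligned to several places was 34.0, 34.6 and 39.0% in T0 replicates 1, 2 and 3, and 26.0 to 33.3% in the later libraries. The part of this difference in the member counts was not tested.

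Counts were normalized by TMM and tested with edgeR 4.0.16 (quasi-likelihood, filterByExpr, R 4.3.3) on the libraries of the 2 groups compared, with p-values adjusted by Benjamini and Hochberg over all genes tested and a threshold of 0.05. Scripts were tested on simulated data. Normalized CPM divides counts by library total times TMM factor; the smallest count distinguishable from 0 was taken as 3 per library, or 0.18 to 0.337 CPM, for counting error only. No p-value was computed for a class sum. Gene positions, stop codons and unique windows came from NCBIM37 with GENCODE M1, which is not the annotation used for counting. Members with a mean of at least 5 CPM, or past the threshold in any comparison, are named with all values. Members, lists and markers were chosen with earlier results of these data known. Alternatives were DESeq2 1.42.0 as test or scaling, no filter on low counts, a single fit of all libraries, a replicate block and leaving out each library. Same-numbered T1 and T2 libraries deviated together (r of 0.273, 0.437 and 0.208 for numbers 1 to 3). So did T1 replicate 3 and T2 replicate 4 (r of 0.447), while the other T1 and T2 pairs of unlike number had r from -0.386 to 0.0674. Same-numbered libraries of T0 with T1 or T2 did not deviate together in all pairs (r from -0.152 to 0.145). The main fits used no pairing, and same-numbered libraries were taken as paired only in the replicate block.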

Additional observations from a re-analysis of the deposited data

Results flagged for a closer look

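Within the 4 T2 libraries 12 quantities, the 7 named members and the 5 class sums, were searched for a library that lies far from the others, and chance alone marks about 1 in 20. Hist1h2bc was marked: replicate 2 stood at 5.57 CPM and the others at 7.63 to 7.86, a gap of 0.90 of the whole range. Hist1h2al, an H2A gene of the Hist1 cluster, is listed in the FPKM table but not in the count tables. It is therefore not among the members or in the H2A sums. It stood at 0.294, 1.34 and 0.619 FPKM at T0, 3.08, 3.79 and 6.63 at T1, 3.71, 2.06, 5.43 and 4.59 at T2, and 4.06 and 1.05 at T3. Its mean over the 9 differentiating libraries, 3.82 FPKM, was above every T0 library, and T3 replicate 4 was below T0 replicate 2. The depth behind these FPKM values is unknown, and the difference was not tested.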

How the results depend on the processing

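No result reversed. Of the named members' log2 fold changes 364 alternatives kept the result, 20 lost a call and 1 gained one. Those called in neither fit were taken as kept, whatever their sign. The calls held in 11 of 11 alternatives for Hist1h2be at T1 and 12 of 12 for Hist2h3c1 at T2. Hist3h2a was called in 7 of 11 at T1 and 11 of 12 at T2, and Hist2h3c1 in 8 of 11 at T1. Hist1h4i was called in 4 of 11 at T1 and 7 of 12 at T2. In 100 alternatives the class sums moved by less than the SD between replicates. Leaving out 1 library cannot move a mean that far, so only other scaling could have shown a move. Without a filter on low counts 5 of 59 members were lower at T2, and with DESeq2 4, against 1 in the main fit. Over all genes tested, 16.1%, 21.5% and 21.8% were lower in these fits. A single fit of all 12 libraries called 1 member higher at T3, where 15.4% of all genes were. With the replicate block 1 member was lower at T1, 0 were lower and 1 was higher at T2: Hist1h4i was no longer called at either time (adjusted p by edgeR = 0.0668 and 0.0719), nor Hist3h2a at T2 (0.0702), and no call between T1 and T2 or T2 and T3 changed. With that block 13.9% of all genes were lower at T1, and 12.2% were lower and 12.9% higher at T2. No paired analysis was possible for T3 against T0 because they share only replicate number 1. Leaving out a library gave 1 to 3 members lower and 0 to 2 higher at T1, and 0 to 3 lower at T2; 0 were lower at T2 without T0 replicate 1 or 2 or T2 replicate 1 or 2, and 3 without T0 replicate 3. At T1, 1 was lower without T0 replicate 1 or 2 or any 1 T1 library, and 3 without T0 replicate 3. Higher members at T1 fell to 0 without any 1 T1 library and to 1 without T0 replicate 1. Of all genes tested, the fits that left out a library called 7.5 to 24.9% lower and 6.47 to 25.2% higher at T1, and 16.6 to 25.3% lower at T2. The highest of these shares were those without T0 replicate 3. The cause of these differences was not tested. Depth limits most members, which had at most 60 counts in all. The lists of replication genes, histone genes outside the clusters, histone mRNA processing genes and chaperone genes were checked in the same way. Of their counts 360 stayed within 1.5 times and 80 did not. Counts of cell type markers were not checked in this way.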
